A study of Rattus norvegicus with 2 samples.

Results

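The Notch pathway was described through 40 genes in cultured rat neural precursor cells: receptors, ligands, the proteases that cut the receptor, the nuclear factor that the cut receptor binds, HES and HEY target factors, and enzymes and adaptors that modify receptors or ligands. Probes were assigned to genes by the RefSeq accession printed in the scanner files. By that match 35 of the 40 genes had a probe, 43 probes in all, and 30 genes were well above background in at least 1 channel on each of the 2 arrays, out of 10847 such genes on the first array and 10236 on the second. Dll4, Dlk1, Hes3, Heyl and Numbl stayed below that limit in all 4 channels. Jag2, Dner, Hes6, Maml1 and Dtx1 had no probe matched by accession and are not analysed here.

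The cells were primary neural stem cells of SD rats, from cortex at embryonic day 14, grown in N2 medium with bFGF at 10 ng/mL, a mitogen for neural precursors. They were transiently transfected with 4 µg of plasmid, and whether transfected cells were then selected is not given in the sources used here. In the withdrawal array, empty vector (MSCV-IRES-EGFP, which carries a fluorescent reporter) without bFGF was labelled red (Cy5) and set against empty vector with bFGF in green (Cy3). The cells without bFGF had also been moved to NB medium for 2 days, so the loss of bFGF and the change of medium cannot be told apart. In the array labelled Bcl-2, cells carrying rBcl-2-MSCV-IRES-EGFP with bFGF were in red, and empty vector with bFGF was again in green; Bcl-2 is an inhibitor of mitochondrial cell death. Each comparison is 1 array with no replicate and no dye swap by the labels, so no test across samples exists and every value below describes these arrays.

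Notch is a receptor that a ligand on a neighbouring cell activates. Bound receptor is cut first by an ADAM protease and then, within the membrane, by gamma-secretase, and the freed intracellular part enters the nucleus, joins the DNA-binding protein RBPJ and a Mastermind co-activator, and switches on HES and HEY genes. In the embryonic cortex HES factors repress proneural genes and hold neighbouring cells of a neurogenic cell in the progenitor state.

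RBPJ recognises a short sequence found at HES and HEY promoters. The promoters of Hes1, Hes5 and Hey2 are shown. Among measured HES/HEY factors with a promoter sequence in hand, these were furthest from 0 on the withdrawal array. On the array labelled Bcl-2, Hes2 (log2 0.12) lay further from 0 than Hes5 (log2 0.09). Each promoter runs from 250 bases before to 50 bases after the start of the gene, from RefSeq, build GRCr8. Capitals mark GTGGGAA or, on the opposite strand, TTCCCAC. The promoters of Hes2, Hes6 and Heyl held no match. Hes1 lies at chr11:84212996-84213295 (minus strand), Hes5 at chr5:170804327-170804626 (plus strand) and Hey2 at chr1:28640850-28641149 (plus strand).
Hes1: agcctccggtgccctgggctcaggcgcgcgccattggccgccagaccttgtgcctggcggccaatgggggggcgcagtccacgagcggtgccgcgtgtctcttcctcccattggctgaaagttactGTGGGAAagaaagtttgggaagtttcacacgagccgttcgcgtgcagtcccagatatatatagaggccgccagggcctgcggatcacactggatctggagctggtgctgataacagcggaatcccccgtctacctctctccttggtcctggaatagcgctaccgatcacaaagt
Hes5: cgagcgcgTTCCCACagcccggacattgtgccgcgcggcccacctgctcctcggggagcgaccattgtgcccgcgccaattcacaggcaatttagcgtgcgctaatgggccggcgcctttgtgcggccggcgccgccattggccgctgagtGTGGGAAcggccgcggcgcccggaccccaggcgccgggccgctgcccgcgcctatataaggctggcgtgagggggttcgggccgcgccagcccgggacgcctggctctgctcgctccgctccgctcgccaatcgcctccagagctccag
Hey2: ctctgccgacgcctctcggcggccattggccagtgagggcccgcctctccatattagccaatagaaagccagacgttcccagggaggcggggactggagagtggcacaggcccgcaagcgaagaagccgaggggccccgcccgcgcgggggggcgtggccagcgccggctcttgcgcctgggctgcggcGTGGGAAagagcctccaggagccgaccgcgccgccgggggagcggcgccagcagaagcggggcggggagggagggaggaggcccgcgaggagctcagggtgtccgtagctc
Of 35 genes of the list with a promoter sequence, 6 held GTGGGAA on either strand (Hes1, Hes5, Hey2, Dll1, Lfng and Mib1), against 6.29% of 33469 rat promoters of the same length. The shorter TGGGAA, also on either strand, was held by 12 of 35, against 25.7% of those promoters. A match is a stretch of letters and does not show that RBPJ binds there. Mfng, Hey1, Hes3, Dtx3 and Dll4 had no entry.

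The likeness between channels did not follow their labels, which bears on every direction given here. Both green channels are labelled as the same kind of cells, yet over 9429 genes measured well in all channels the SD of their log2 difference was 0.41. Withdrawal red minus Bcl-2-array green had an SD of 0.17, and Bcl-2-array red minus withdrawal green also 0.17. Across 29 Notch genes the same differences had SDs of 0.34 (green against green), 0.19 and 0.22. Over all gene spots, Pearson's r between the arrays' log2 ratios was -0.67 (-0.12 with the scanner software's ratio), given here as a check of the labels. The direction is therefore not settled: ratios are red over green as labelled, and if the dyes of an array were turned, every sign on that array would turn.

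Markers of several cell types were read beside the Notch genes. Neural precursor markers were present, as labelled: 6 of 7 were measured on the withdrawal array (summed signal 203236.6 in red, 137737.5 in green) and 5 on the other (152267.3 in red, 212392 in green). They did not move together: 3 lay above 0 and 3 below under withdrawal (median log2 ratio 0.07), with Fabp7 at 1.26 and Vim at -0.49, and under Bcl-2 1 lay above 0 and 4 below (median -0.27), with Fabp7 at -0.91 and Vim at 0.56. Of 6 astrocyte markers 5 were measured, with a summed signal of 23153.5 in red against 13715 in green on the withdrawal array, and 13877 in red against 23179.5 in green on the other. All 5 were above 0 on the withdrawal array and all 5 below 0 on the other, and Gfap, the astrocyte filament gene, was not well above background anywhere. All 4 measured neuronal markers of 6 listed were above 0 on the withdrawal array, with a median of 0.51 and summed signals of 7926 in red and 5788 in green; on the other array the median was -0.32, with 6930 in red and 6918 in green. Endothelial cells are a known site of Notch4 and Dll4: 3 of 7 markers were measured on the withdrawal array (summed signal 503.0 in red, 429.6 in green), 2 on the other (329.3 in red, 349.0 in green), and Pecam1, Tek and Cldn5 were not well above background. Of 6 mural cell markers 5 were measured, with 5982 in red against 5218 in green on the withdrawal array and 5871 in red against 7477 in green on the other. Of these, 4 lay above 0 under withdrawal and all 5 below 0 under Bcl-2, and Acta2, a smooth muscle actin, had log2 ratios of 2.19 and -1.93. Of 6 microglia and blood markers 4 were measured, with 1473 in red against 1494 in green and 1740 in red against 1418 in green. Of all measured genes, 5884 of 10847 lay above 0 on the withdrawal array and 4939 of 10236 on the other. The part of these markers in the values of the Notch genes was not tested. The Bcl2 probe itself was at 0.39 on the withdrawal array and at -0.02 on the array labelled Bcl-2, so a higher Bcl-2 level was not seen in the channel labelled with it; whether the probe lies within the plasmid's insert was not tested.

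With bFGF withdrawn, the Notch genes were on balance slightly higher in the channel labelled without bFGF, and none changed by as much as 2-fold. The 30 measured genes had a median log2 ratio of 0.25 (-0.25 with the sign turned), against 0.03 for all measured genes. Of the 30, 19 lay above 0 and 11 below, against 5884 above and 4963 below of all 10847. Counted as at least 2-fold were 0 of 30, against 2.42% of all measured genes higher and 0.470% lower. At 1.5-fold the count was 6 of 30 higher (Notch2, Mfng, Hes5, Dtx3, Dtx4 and Dll1) against 7.95% of all genes, and 0 of 30 lower against 2.79%; with the sign turned the 6 would be lower. In RNA from whole cultures, fewer cells of a type and less RNA per cell cannot be told apart. By role, all receptors and gamma-secretase subunits measured lay above 0, as did 4 of 5 HES/HEY factors, while Jag1, the ADAM proteases, Rbpj and Pofut1 lay below 0. Counts by role, here and below, are to be read beside the counts over all genes of the same array.

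On the array labelled Bcl-2 the 30 genes were centred on 0. Their median log2 ratio was -0.01 (0.01 with the sign turned), as for all measured genes (-0.01). Of the 30, 15 lay above 0 and 15 below, against 4939 above and 5297 below of all 10236. None of the 30 reached 2-fold, against 0.557% of all measured genes higher and 2.00% lower. At 1.5-fold, Aph1a, Hes1 and Mfng were lower, which is 3 of 30 against 6.64% of all genes, and 0 of 30 were higher against 2.30%; with the sign turned these 3 would be higher.

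**Figure D1:**
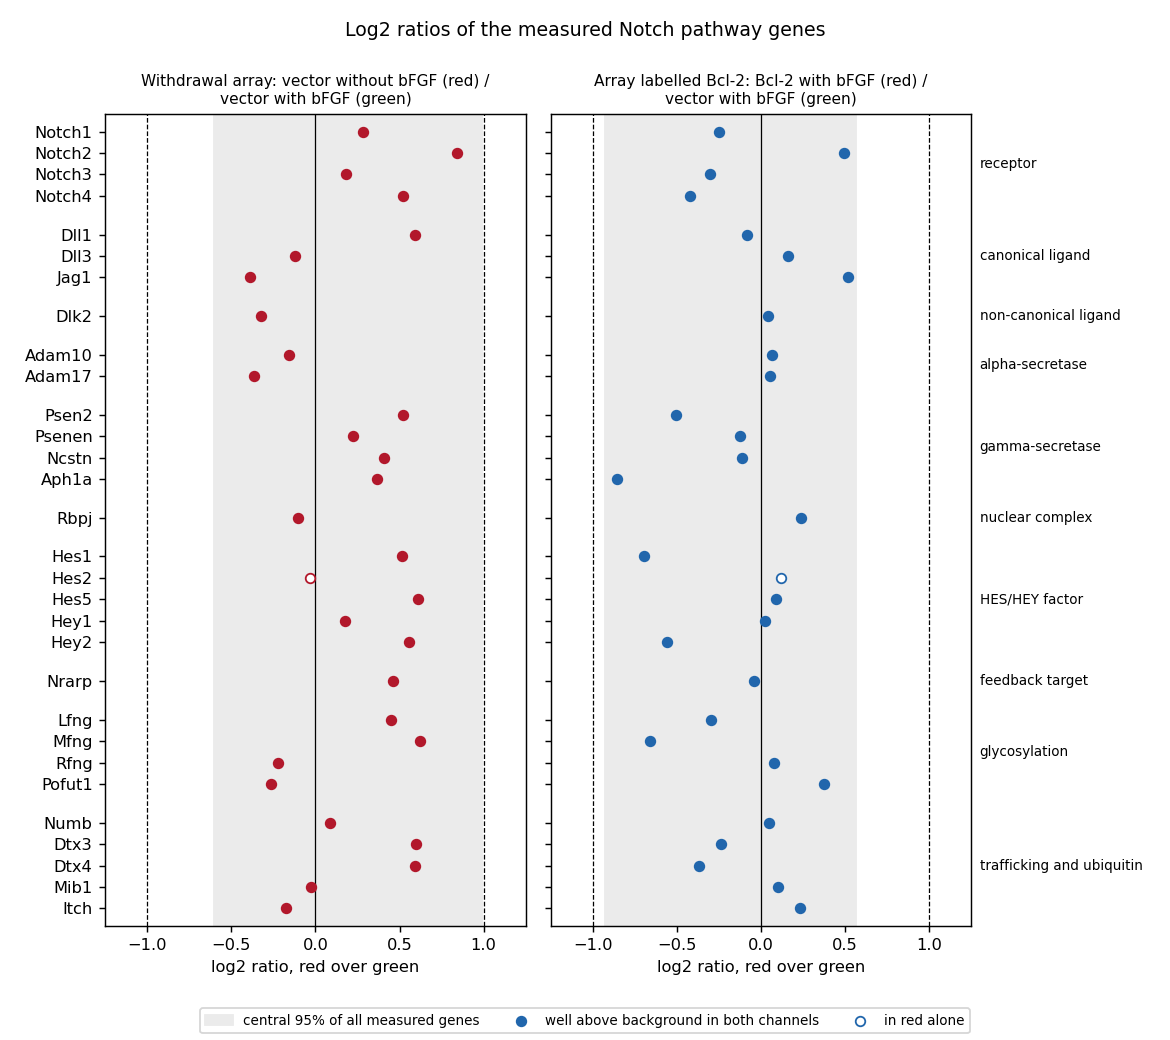
Log2 ratio of red over green (x axis) for each of the 30 measured Notch genes, grouped by role, on the withdrawal array (left) and the array labelled Bcl-2 (right). The grey band holds the central 95% of all measured genes, dashed lines mark 2-fold, and no point lies beyond 2-fold; Notch2 is the point furthest right on the left panel, at 0.84, and Aph1a the point furthest left on the right panel, at -0.86.

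Each of the 4 receptors was measured and lay above 0 on the withdrawal array, with a median log2 ratio of 0.40; on the array labelled Bcl-2 the median was -0.28, and Notch2 alone lay above 0. Notch2, which with Notch1 is a main receptor of neural progenitors, had a normalized signal of 274.5 in vector cells without bFGF against 153.0 in vector cells with bFGF, a ratio of 1.79-fold (log2 0.84). On the array labelled Bcl-2 it had 222.7 in Bcl-2 cells against 157.8 in vector cells, which is 1.41-fold (log2 0.50). It was thus brighter in red than in green on both arrays, and its green signals lay close together.

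Notch1 was measured by a pair of probes that disagreed. Its signals were 1515 without bFGF against 1244 with bFGF (log2 0.28), and 1281 in Bcl-2 cells against 1521 in vector cells (log2 -0.25). The brighter probe (log2 signal 13.34 without bFGF) gave 0.64 under withdrawal and -0.50 under Bcl-2. The dimmer probe (log2 signal 7.80 without bFGF) gave -0.07 and 0.00. The Notch1 signals and ratios above are therefore midpoints of unlike readings. For Notch3, a receptor best known from the mural cells of vessels, signals were 201.0 without bFGF against 176.9 with bFGF (log2 0.18), and 186.9 in Bcl-2 cells against 230.9 in vector cells (log2 -0.30).

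Notch4, known mainly from endothelium, was printed at 10 spots of 1 probe, which gives the within-array error of a Notch gene directly. On the withdrawal array the 10 spots had a log2 ratio of 0.52 ± 0.08 (SD over spots) and lay between 0.45 and 0.65, and on the array labelled Bcl-2 they had -0.42 ± 0.07 and lay between -0.53 and -0.35. How many other repeated probes have ranges that lie apart was not counted, so this cannot be read as particular to Notch4. Psenen, a gamma-secretase subunit printed at 10 spots as well, had 0.22 ± 0.03 (range 0.17 to 0.26) and -0.12 ± 0.02 (range -0.17 to -0.09). Its mean signals were 7347 without bFGF against 6302 with bFGF, and 6955 in Bcl-2 cells against 7573 in vector cells. Notch4 had 369.4 without bFGF against 257.0 with bFGF, and 258.6 in Bcl-2 cells against 347.0 in vector cells. Across all probes with at least 5 spots, the median SD was 0.04 on each array. This spread covers the spot alone and not separate cultures, labelling reactions or dyes.

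**Figure D2:**
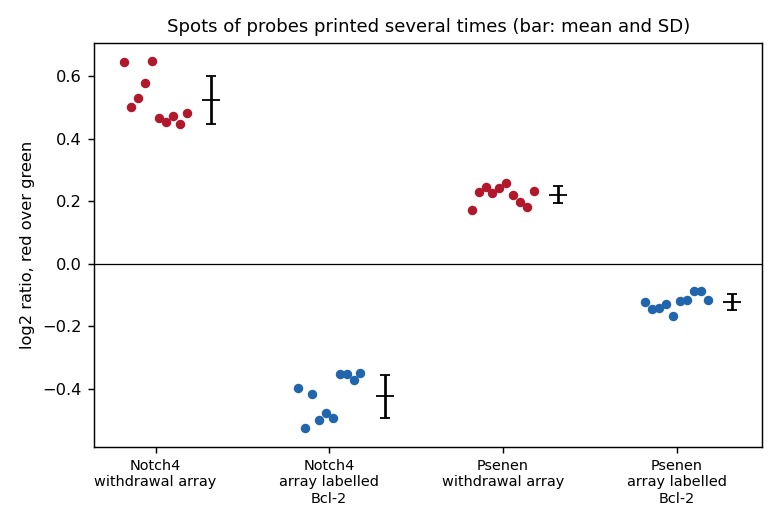
Log2 ratio of red over green (y axis) at each of 10 spots of the Notch4 and Psenen probes on each array, with mean and SD over spots as bars. The Notch4 spots lie between 0.45 and 0.65 on the withdrawal array and between -0.53 and -0.35 on the array labelled Bcl-2, and the Psenen spots lie nearer to 0.

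Of the canonical ligands 3 were measured. Dll1, the Delta ligand that neurogenic cells present to their neighbours, had a signal of 1063 without bFGF against 705.0 with bFGF, 1.51-fold higher (log2 0.59). The green signals of Dll1, labelled as the same cells, differed by 0.46 on the log2 scale, and withdrawal green was the lowest channel. In Bcl-2 cells Dll1 had 914.7 against 967.2 in vector cells (log2 -0.08). Jag1, a Jagged-type ligand, went the other way, with 891.3 without bFGF against 1167 with bFGF (log2 -0.39) and 1139 in Bcl-2 cells against 796.6 in vector cells (log2 0.52). Dll3, a Delta ligand that acts inside the cell as an inhibitor of Notch, had 6353 without bFGF against 6907 with bFGF (log2 -0.12) and 7338 in Bcl-2 cells against 6551 in vector cells (log2 0.16). Dlk2, a ligand-like protein without the domain through which Delta proteins bind Notch, had 170.9 without bFGF against 213.8 with bFGF (log2 -0.32) and 212.3 in Bcl-2 cells against 206.2 in vector cells (log2 0.04). The 3 measured canonical ligands had medians of -0.12 and 0.16.

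Adam10 and Adam17, which make the first cut, lay below 0 under withdrawal. Adam10 had 241.6 without bFGF against 269.1 with bFGF (log2 -0.16) and 235.2 in Bcl-2 cells against 224.3 in vector cells (log2 0.07). Adam17 had 315.2 without bFGF against 406.5 with bFGF (log2 -0.37) and 359.4 in Bcl-2 cells against 345.6 in vector cells (log2 0.06). All 4 measured gamma-secretase genes of the list lay above 0 on the withdrawal array, with a median of 0.39, and all 4 below 0 on the other, with a median of -0.31. Psen2, a catalytic subunit, had 430.1 without bFGF against 299.7 with bFGF (log2 0.52), and 313.2 in Bcl-2 cells against 443.7 in vector cells (log2 -0.50). Aph1a, a scaffold subunit, had 4706 without bFGF against 3645 with bFGF (log2 0.37), and 2644 in Bcl-2 cells against 4796 in vector cells. That log2 ratio of -0.86, or 1.81-fold higher in the vector cells, was the furthest from 0 of any Notch gene on the array labelled Bcl-2. Its signal in Bcl-2 cells was the lowest of the 4 channels. The green signals of Aph1a, labelled as the same cells, differed by 0.40 on the log2 scale. Ncstn, the subunit that receives substrates, had 4473 without bFGF against 3375 with bFGF (log2 0.41; its probes gave 0.17 and 0.64) and 3665 in Bcl-2 cells against 3956 in vector cells (log2 -0.11).

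The alternative scaffold Aph1b, from a further list of 45 pathway genes, had a log2 ratio of 0.43 under withdrawal and of -0.45 under Bcl-2; it is named because its values were seen to resemble those of the subunits above. Over the whole further list, 31 genes were measured on the withdrawal array, with a median of 0.04, and 30 on the other, also with a median of 0.04. None was at least 2-fold higher on either array. At least 2-fold lower was 1 of 31 on the withdrawal array, against 0.470% of all genes: Tle2, a Groucho-type co-repressor that HES factors recruit, with 860.7 without bFGF against 1745 with bFGF (log2 -1.02) and 1471 in Bcl-2 cells against 953.4 in vector cells (log2 0.63). With the sign turned, Tle2 would be 1 of 31 higher, against the same share.

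Rbpj, the DNA-binding factor of the pathway, had 741.1 without bFGF against 795.9 with bFGF (log2 -0.10) and 902.1 in Bcl-2 cells against 766.1 in vector cells (log2 0.24). Its probes had opposite signs on the withdrawal array (0.04 and -0.24) and both lay above 0 on the other.

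Among HES/HEY factors 5 of 8 were measured. Their median log2 ratio was 0.52 on the withdrawal array, with 4 above 0, and 0.02 on the array labelled Bcl-2, with 3 above 0. Without Hes2, which was dim in green, the medians were 0.54 and -0.27, and with no filter on background the withdrawal median was 0.18. Hes5, a target of Notch that maintains cortical progenitors, had a signal of 469.5 without bFGF against 307.9 with bFGF, 1.53-fold higher (log2 0.61). In Bcl-2 cells it had 514.9 against 484.7 in vector cells (log2 0.09). Of its 4 signals, 3 lay between 469.5 and 514.9 and withdrawal green was the low one, although it carries the same label as the channel at 484.7. Hes1, the other main HES effector in progenitors, had 577.2 without bFGF against 403.2 with bFGF (log2 0.52) and 371.4 in Bcl-2 cells against 600.8 in vector cells (log2 -0.69). Its green signals, labelled as the same cells, differed by 0.58 on the log2 scale, between the sizes of the red to green differences of the arrays.

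Hey2, a Hairy-related repressor, had 240.7 without bFGF against 163.9 with bFGF (log2 0.55) and 172.7 in Bcl-2 cells against 254.7 in vector cells (log2 -0.56). These values rest on 1 probe, the other Hey2 probe not being well above background, and with both probes they became 0.18 and -0.35. Hey1 had 174.4 without bFGF against 154.1 with bFGF (log2 0.18) and 159.6 in Bcl-2 cells against 156.9 in vector cells (log2 0.02). On both arrays Hes2 passed the background limit in red and missed it in green. It had 116.3 without bFGF against 118.8 with bFGF (log2 -0.03) and 121.5 in Bcl-2 cells against 111.8 in vector cells (log2 0.12). These are plain ratios of signals near the background limit, and no least fold can be given on either array. On the array labelled Bcl-2 the scanner software's ratio was 0.55 ± 0.46 (software error). Nrarp is a Notch target that feeds back on the pathway by binding the RBPJ complex. It had 4145 without bFGF against 3015 with bFGF (log2 0.46), and 3697 in Bcl-2 cells against 3809 in vector cells (log2 -0.04). The green signals of Nrarp, labelled as the same cells, differed by 0.34 on the log2 scale, and withdrawal green was the lowest channel.

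**Figure D3:**
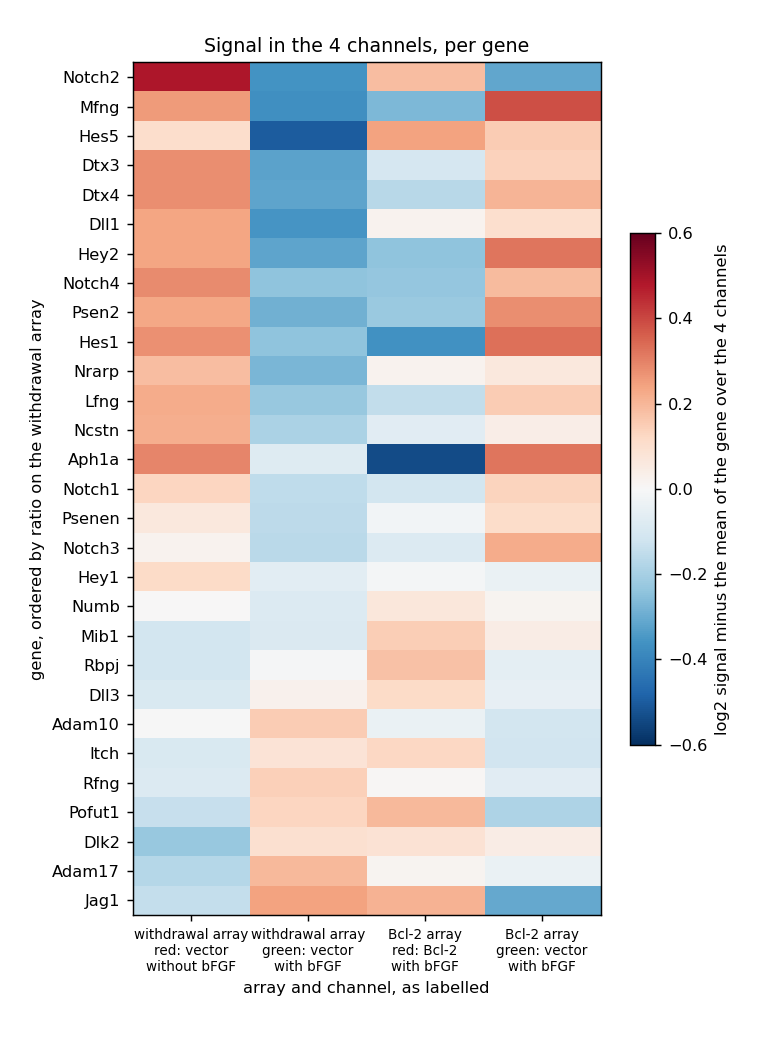
Log2 signal of each of 29 Notch genes (rows) in the 4 channels (columns), minus the mean of that gene over the channels; red is above and blue below the mean. The first and last columns, labelled as different cells, resemble each other in most rows; Notch2 is high in both red channels, Hes5 is low in withdrawal green at 307.9, and Aph1a is low in Bcl-2-array red at 2644.

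Enzymes that add sugars to Notch were divided. Lfng and Mfng, fringe enzymes that shift the preference of Notch between Delta and Jagged ligands, were higher without bFGF and lower in Bcl-2 cells. Lfng had 816.7 without bFGF against 598.2 with bFGF (log2 0.45) and 632.3 in Bcl-2 cells against 778.5 in vector cells (log2 -0.30). Mfng had 274.7 without bFGF against 178.1 with bFGF (log2 0.62) and 190.6 in Bcl-2 cells against 300.6 in vector cells (log2 -0.66). Its green signals, labelled as the same cells, differed by 0.755 on the log2 scale, more than the size of either ratio. Rfng, the third fringe enzyme, had 934.7 without bFGF against 1089 with bFGF (log2 -0.22) and 993.1 in Bcl-2 cells against 941.9 in vector cells (log2 0.08). Pofut1, which adds the fucose that fringe enzymes extend, had 360.6 without bFGF against 433.4 with bFGF (log2 -0.27) and 452.8 in Bcl-2 cells against 348.5 in vector cells (log2 0.38).

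Of the adaptors and ubiquitin ligases, Dtx3 and Dtx4 of the Deltex family were higher without bFGF. Dtx3 had 486.6 without bFGF against 321.0 with bFGF (log2 0.60), and 374.2 in Bcl-2 cells against 441.9 in vector cells (log2 -0.24). Dtx4 had 273.7 without bFGF against 181.5 with bFGF (log2 0.59) and 201.5 in Bcl-2 cells against 259.8 in vector cells (log2 -0.37). Numb, an inhibitor of Notch passed unequally to daughter cells, had 191.2 without bFGF against 180.4 with bFGF (log2 0.08) and 200.2 in Bcl-2 cells against 193.2 in vector cells (log2 0.05), the Bcl-2 value from probes of opposite sign. Mib1, the ligase that drives ligand endocytosis, had 728.0 without bFGF against 740.2 with bFGF (log2 -0.02) and 869.4 in Bcl-2 cells against 810.1 in vector cells (log2 0.10). Itch, a ligase that marks Notch for degradation, had 134.2 without bFGF against 151.6 with bFGF (log2 -0.18) and 155.7 in Bcl-2 cells against 132.3 in vector cells (log2 0.24).

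**Figure D4:**
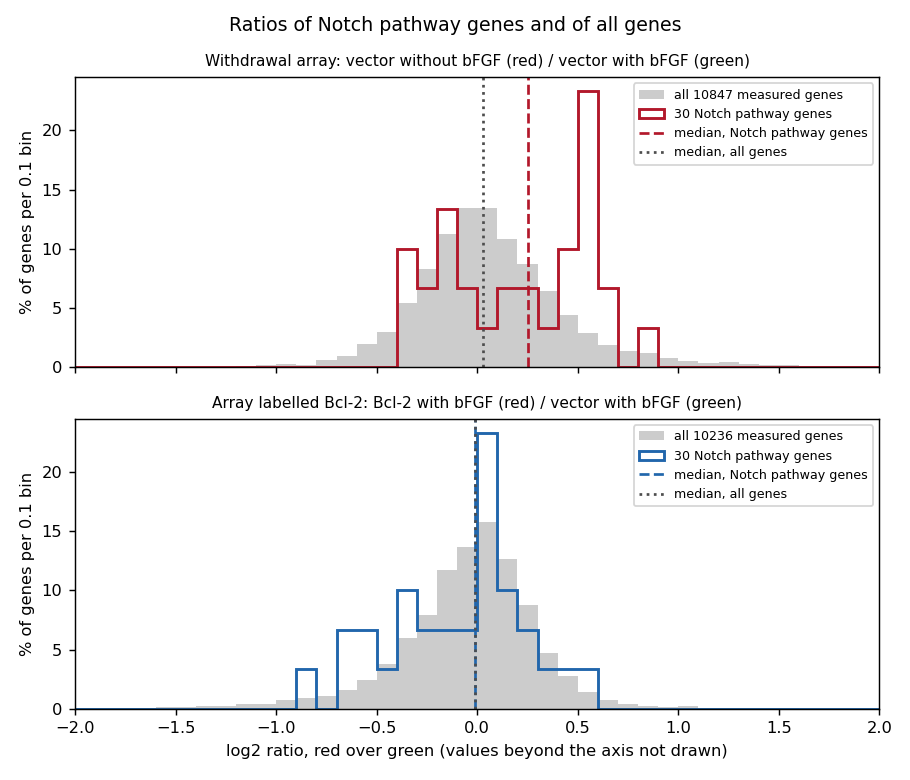
Distribution of log2 ratios of red over green (x axis) as percent of genes per bin (y axis), for all measured genes (grey) and the 30 Notch genes (outline), on the withdrawal array (top) and the array labelled Bcl-2 (bottom). The median of the Notch genes is 0.25 on the withdrawal array, right of that of all genes at 0.03, and -0.01 on the other array, as for all genes.

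The size of the ratio depended on how it was computed, as the following values show. Which step of the computation made the difference was not tested. With the scanner software's own ratio, Notch2 was at 1.49 ± 0.26 (software error) and Hey2 at 1.05 ± 0.24 on the withdrawal array, both past 2-fold. On the array labelled Bcl-2, that ratio placed Notch2 at 1.06 ± 0.25 and Mfng at -1.08 ± 0.24. By this ratio 2 of 30 Notch genes were at least 2-fold higher on the withdrawal array against 8.18% of all genes, and 0 of 30 lower against 2.18%. On the array labelled Bcl-2, 1 of 30 was higher against 3.50%, and 1 of 30 lower against 6.74%. With the sign turned, higher and lower change places in these counts and shares. Genes with more signal moved too: under withdrawal Adam17 was at -0.63 by the software against -0.37 after normexp and loess, and under Bcl-2 Hes5 was at 0.23 against 0.09 and Pofut1 at 0.61 against 0.38. Aph1a under Bcl-2 was at -0.89 ± 0.22 against -0.86.

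**Figure D5:**
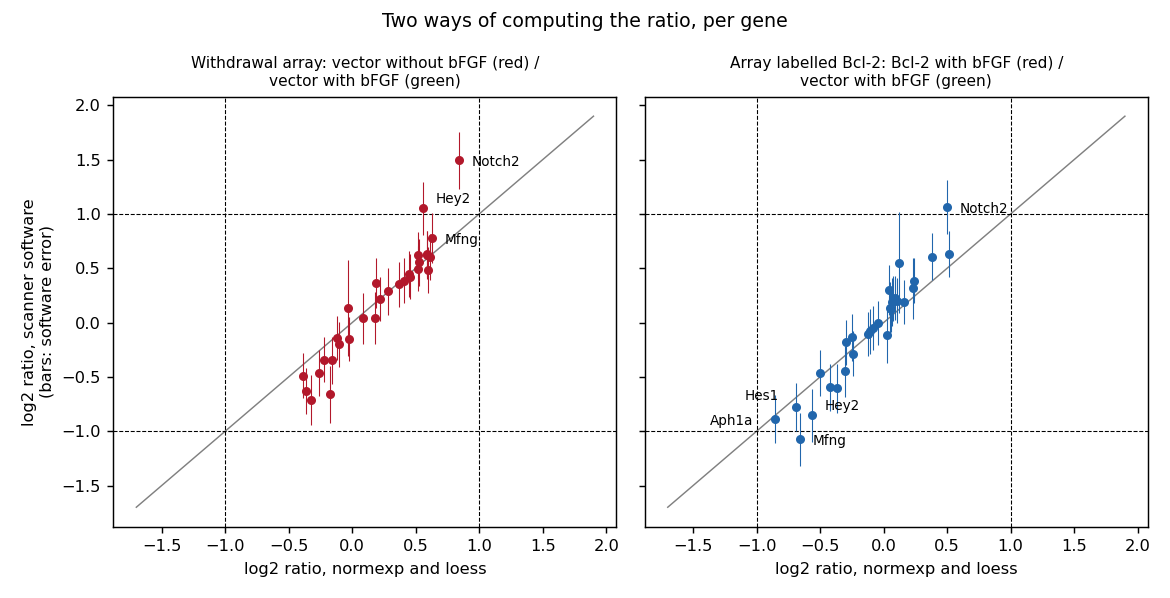
Log2 ratio of red over green by the scanner software (y axis, bars: its error) against the ratio after normexp and loess (x axis) for the 30 Notch genes on the withdrawal array (left) and the array labelled Bcl-2 (right). Dashed lines mark 2-fold and the diagonal equality; Notch2 and Hey2 on the left, and Notch2 and Mfng on the right, lie past 2-fold by the software's ratio.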

How the data were processed

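Two-colour Agilent rat expression arrays, 2 in all, were used, 1 per comparison. The authors deposited unnormalized pixel-median intensity of each spot and its surroundings, per the file headers, made with Feature Extraction 11.5.1.1 (protocol GE2_1105_Oct12, design 028282, build rn4); the submitters' processing notes name 8.5.1.1. The deposited files also hold a log10 ratio (red over green) computed by that software, its error, and flags. A linear ratio for 29782 probes stands in the authors' deposited value table, with medians 0.932 and 0.944, whose scale, centring and direction are not stated. Within 0.05 (log2) and after a constant, column 1 matched the withdrawal array's own ratio for 100% of 28395 single-spot probes; column 2 matched the product of both arrays' ratios for 100% and its own array's ratio for 7.06%. The quotient of the columns therefore stood for the second array.

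Background was corrected by normexp (offset 50) and ratios by within-array loess in limma 3.58.1 (R 4.3.3), with controls at weight 0; signals across arrays were scaled by Aquantile. Signals printed include that offset, which pulls ratios of dim probes towards 0. Negative control spots had median raw signals of 49 (red) and 96 (green) on the withdrawal array and 83 and 99 on the other. Median net signals were 284.5 in red and 189 in green, and 266 and 201; 534 and 576 outlier spots were left out and none (0) was saturated. Repeated spots were averaged per probe, probes well above background in either channel were kept, and a gene is the median of its kept probes. Accessions were matched to RefSeq genes of assembly GRCr8 for names alone, which named 60.4% of 30367 probes. A gene counted as 2-fold had an absolute log2 ratio of at least 1 and 1 sign over its probes. For a gene dim in 1 channel the ratio printed is the plain ratio of the signals, which is no lower bound and is open to dye bias. The number of arrays limits the precision. Summaries used Python 3.11.15, numpy 2.4.6 and pandas 2.3.3, and the normalization was tested on simulated data. That test scored planted changes of at least 2-fold at bright spots alone, so it does not cover dim genes or smaller changes. The genes, lists and roles were chosen with earlier results of these data known. All 30 measured genes are named, with Bcl2, the markers described, the further pathway genes at least 2-fold and, outside that rule, Aph1b, chosen after its values were seen. Some results for further pathway genes are not reported here.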

Additional observations from a re-analysis of the deposited data

How the results depend on the processing

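No paired analysis was possible because each comparison has 1 array. On the withdrawal array, the count of Notch genes at least 2-fold higher, 0, became 1 with a normexp offset of 10, 2 with the scanner software's ratio, 2 of 28 with the value table and 6 at 1.5-fold; the median of 0.25 became 0.32 with the software's ratio, 0.50 with median centring, 0.43 with the value table, 0.18 with no background filter and 0.30 with the brightest probe. On the array labelled Bcl-2, the software's ratio gave 1 higher and 1 lower, with the value table there was 1 lower, and the 1.5-fold threshold gave 3 lower; the median of -0.01 became -0.070 with median centring and -0.13 with the value table. The causes were not tested, except that a lower threshold counts more genes. Median centring moved the median of all genes to 0.17 on the withdrawal array, so the Notch median there is 0.50 against 0.17. Across the 4 alternatives that recompute every ratio (offset, software ratio, median centring, value table), 25 of 30 genes kept their sign on the withdrawal array in each that gave a value (not Dll3, Hes2, Mib1, Rbpj and Rfng) and 22 of 30 on the other (not Adam10, Adam17, Dlk2, Hes5, Hey1, Mib1, Numb and Rfng). The mean over probes could change no Notch gene, none having over 2 kept probes, and the filter in both channels only removed Hes2. The counts of all genes at least 2-fold, 263 higher and 51 lower on the withdrawal array and 57 and 205 on the other, became 887 and 237, and 358 and 690, with the software's ratio, 445 and 91 on the withdrawal array with an offset of 10, 473 higher there with median centring, and 966 and 184, and 307 and 741, with the value table. Low signal over background limits several genes, among them Hes2, Itch, Dlk2, Hey1, Hey2, Notch2, Notch3, Mfng, Dtx4 and Numb.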
